A study of Mus musculus with 28 samples.

Results

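The response of skeletal muscle to tamoxifen was compared between 2 genotypes, in a design of 2 genotypes by 2 treatments. All 16 mice of the Dnm2 cohort were used, out of 28 mice in the series, and the comparison was the change with tamoxifen in Dnm2 S619L/+ mice minus the change with tamoxifen in WT mice, called the interaction below. All mice were C57BL/6N, and the tibialis anterior (TA) muscle was sampled when they were 8 weeks old. The 4 groups of 4 mice were WT on placebo, WT on tamoxifen, Dnm2 S619L/+ on placebo and Dnm2 S619L/+ on tamoxifen, written as WT placebo, WT tamoxifen, Dnm2 placebo and Dnm2 tamoxifen. The mutation is a heterozygous knock-in carried by every cell of the mouse, so it is not limited to muscle, and the group names give 1 treatment without a dose. The interaction asks whether the drug changed the transcriptome of diseased muscle differently from that of healthy muscle.

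Dynamin 2 is a GTPase that cuts membrane necks during endocytosis and membrane remodelling, and heterozygous changes in its gene cause the dominant form of centronuclear myopathy, in which nuclei lie in the middle of the fibers and muscle is weak. Tamoxifen binds estrogen receptors and acts as an agonist in some tissues, bone among them, and as an antagonist in others. In a design of this kind, an interaction below 0 means a smaller rise or a larger fall with tamoxifen in the mutant than in WT, and an interaction above 0 the opposite. Counts came from whole tissue, in which fewer cells of a type and less RNA per cell cannot be told apart.

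Libraries held 15586333 to 109710886 reads counted on genes. The labels do not give sex, and the mice differed in it as far as sex-linked transcripts show. Xist, which is expressed from the inactive X chromosome, was above 100 CPM (reads per 1000000 reads of the library) in mice 1 and 4 of WT placebo, 1 and 2 of WT tamoxifen, 1 and 4 of Dnm2 placebo and all 4 Dnm2 tamoxifen mice. The other 6 mice had less than 1 CPM of Xist and 59.9 to 95.9 CPM of Ddx3y, a Y-linked RNA helicase gene. The Dnm2 tamoxifen group therefore differed from the other groups in this respect, and the count of genes called and the leading genes are also given for the 10 mice with Xist alone. Dnm2 tamoxifen mouse 4 stood apart, with a correlation of log2 CPM of 0.961 with the mean of the other 3 mice of its group, against 0.971 to 0.992 for the other mice. Summed CPM of 12 muscle identity genes was 56042 to 97086 over the 16 mice. Summed CPM of 20 osteoblast and osteocyte genes was 1471 to 3653 in WT tamoxifen mice, against 35.1 to 67.1 in WT placebo, 20.3 to 35.2 in Dnm2 placebo and 83.0 to 2703 in Dnm2 tamoxifen mice, the lowest of which was mouse 4. Dnm2 itself had a mean level of 63.1 ± 1.45 CPM (SD, n = 4) in WT placebo, 62.7 ± 3.87 in WT tamoxifen, 67.6 ± 4.64 in Dnm2 placebo and 66.9 ± 2.15 in Dnm2 tamoxifen mice, and its interaction was -0.01 (SE 0.10). Its mean was higher in the mutant on both treatments, a difference that the interaction does not measure.

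The interaction passed the test (edgeR, adjusted p under 0.05) for 40 of 15439 genes tested, or 0.259% of them. It was below 0 for 35 genes (0.227%) and above 0 for 5 genes (0.0324%). The first set included the metallothionein Mt3, the protease inhibitor Timp1, the thrombospondin Thbs4, the transcription factors Runx1, Fosl1 and Klf5, the growth factor Gdf11 and the ligand inhibitor Fst. The second set held Lpl, Etfdh, Micall2, Ccdc9b and Gm19461. Without the threshold adjusted for the number of genes, 2089 genes (13.5%) had p under 0.05, 1299 of them (8.41%) below 0 and 790 (5.12%) above 0. The genes nearest the threshold were Fras1 and Spock3 on the inner side, both with an adjusted p of 0.0482, and Galns (interaction -1.60, adjusted p = 0.0542) and Dtl (-2.59, adjusted p = 0.0551) on the outer side.

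The change with tamoxifen within each genotype passed the test for 4273 genes (27.7%) in WT mice, 2441 higher (15.8%) and 1832 lower (11.9%), and for 1277 genes (8.27%) in Dnm2 S619L/+ mice, 806 higher (5.22%) and 471 lower (3.05%). The difference between those counts was not tested. Of the 35 genes with an interaction below 0, 34 rose with tamoxifen in WT, whereas in the mutant 10 fell, 1 rose and 24 did not pass. Fitted changes were above 0 in WT and below 0 in the mutant for 29 of the 35 and above 0 in both for 6. Among the 5 genes with an interaction above 0, 4 fell in WT and 1 rose in the mutant. The choice of genes by the interaction favours opposite signs in the 2 genotypes, so these counts describe the genes called and are no further evidence.

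**Figure D1:**
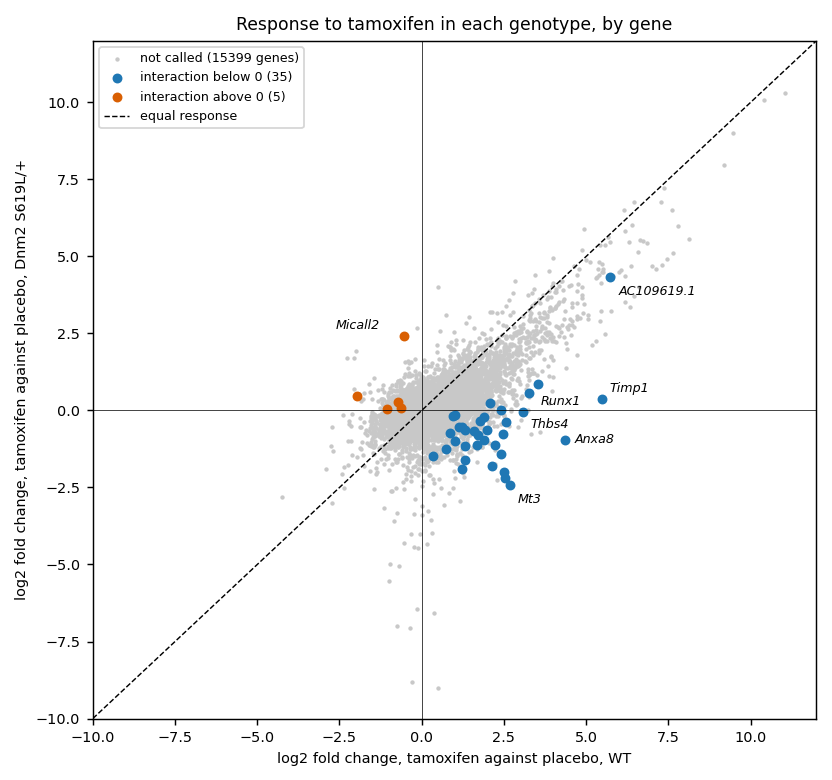
Change with tamoxifen (log2 fold change) in WT mice on the x axis and in Dnm2 S619L/+ mice on the y axis, 1 point a gene, with 4 mice a group. The 35 genes with an interaction below 0 lie to the right of the dashed line of equal response and the 5 with an interaction above 0 to its left, and Mt3, with 2.70 in WT and -2.42 in the mutant, lies in the lower right.

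Placebo levels differed between the genotypes for nearly all of the 40 genes. The 4 Dnm2 placebo mice were all above the 4 WT placebo mice for 33 of them and all below for 4, against 14.3% and 10.6% of all genes tested. WT tamoxifen mice were all above WT placebo mice for 33 genes and all below for 4, against 17.6% and 13.8% of all genes. In the mutant, treated mice were all above placebo mice for 2 genes and all below for 8, against 4.02% and 6.37% of all genes. On tamoxifen the genotypes overlapped for 28 of the 40, with the mutant above WT for 6 and below for 6, against 6.37% and 4.31%. Over the 35 genes with an interaction below 0, the median fitted difference between genotypes was 2.41 (log2) on placebo and 0.04 on tamoxifen. Several genes, Runx1 and Timp1 among them, were low in the WT placebo group alone, with the other 3 groups higher. The WT placebo mice enter the interaction, the change in WT and the placebo difference alike, so the 3 are not independent. The Dnm2 placebo mice likewise enter both the interaction and the placebo difference. Choosing genes by the interaction thus favours a placebo difference of the opposite sign, so these counts and medians describe the genes called and are no further evidence.

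**Figure D2:**
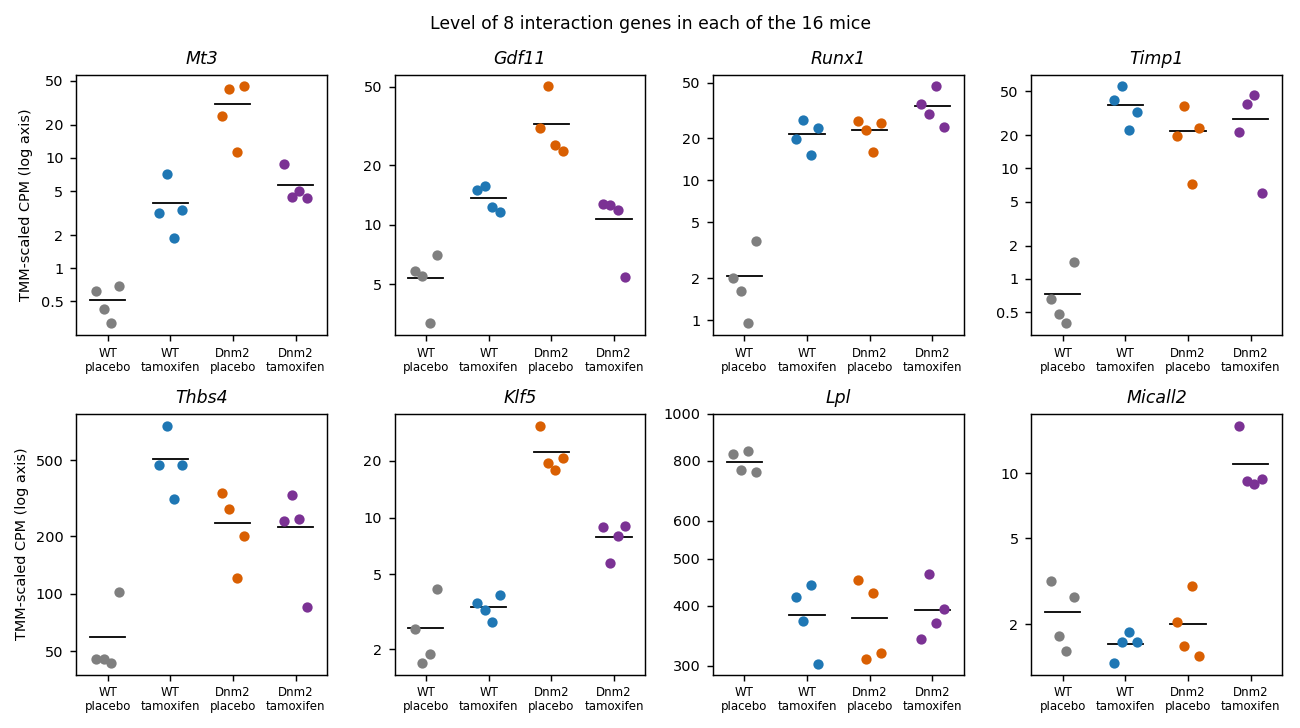
TMM-scaled CPM on a log axis for 8 genes, 1 point a mouse and a bar at the mean of each group of 4. Mt3, Gdf11 and Klf5 were highest in Dnm2 placebo mice, Runx1 and Timp1 were low in WT placebo mice alone, Thbs4 was lowest on average in WT placebo mice with 1 Dnm2 tamoxifen mouse within their range, Lpl was high in WT placebo mice alone, and Micall2 was high in Dnm2 tamoxifen mice alone.

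Levels below are CPM scaled by the trimmed mean of M values (TMM), listed for mice 1 to 4 of each group, and changes are log2 differences. Mt3 encodes metallothionein 3, a small protein that binds zinc and copper. Its level was 0.618, 0.424, 0.316 and 0.692 CPM in WT placebo mice, and 3.14, 7.11, 1.88 and 3.35 CPM in WT tamoxifen mice. In Dnm2 placebo mice it was 24.1, 42.3, 11.2 and 44.6 CPM, and in Dnm2 tamoxifen mice it was 8.89, 4.38, 5.05 and 4.32 CPM. All treated WT mice lay above the WT placebo mice, and all treated mutants lay below the placebo mutants and within or just above the range of treated WT mice. Tamoxifen raised Mt3 by 2.70 (SE 0.48, adjusted p = 0.00122) in WT, whereas in the mutant it fell by 2.42 (SE 0.43, adjusted p = 0.00566), an interaction of -5.11 (SE 0.65, adjusted p = 0.0115). It was the only gene called without each of the 16 mice in turn, with values from -5.42 to -4.65, and its interaction was -5.44 in the 10 mice with Xist. The neighbouring metallothioneins Mt1 and Mt2 had interactions of -1.95 (SE 0.82, adjusted p = 0.322) and -3.97 (SE 0.95, adjusted p = 0.106), which did not pass. Mt2 was at 11.2, 5.91, 10.9 and 2.99 CPM in WT placebo mice and at 230, 151, 31 and 248 CPM in Dnm2 placebo mice, groups that did not overlap.

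Gdf11 encodes a secreted ligand of the TGF-beta superfamily that is related to myostatin, and Fst encodes follistatin, a secreted protein that binds and blocks such ligands. Gdf11 was at 5.80, 5.52, 3.16 and 7.01 CPM in WT placebo, 15, 15.7, 12.3 and 11.6 in WT tamoxifen, 30.7, 50.1, 25.4 and 23.6 in Dnm2 placebo and 12.7, 12.6, 11.8 and 5.40 in Dnm2 tamoxifen mice. Neither pair of treated and placebo groups overlapped, and the treated genotypes did. It rose by 1.31 (SE 0.29, adjusted p = 0.00446) in WT, and in the mutant fell by 1.61 (SE 0.29, adjusted p = 0.00581). Its interaction of -2.91 (SE 0.41, adjusted p = 0.0169) was called without 13 of the 16 mice, the exceptions being WT placebo mouse 1 (adjusted p = 0.0549) and WT tamoxifen mice 1 (adjusted p = 0.0645) and 2 (adjusted p = 0.0615). Fst went from 1.44 to 3.24 CPM in WT placebo to 6.58 to 7.18 CPM in WT tamoxifen mice, and from 9.78 to 23.0 CPM in Dnm2 placebo to 4.94 to 13 CPM in Dnm2 tamoxifen mice, so that only the WT groups did not overlap. The interaction of Fst was -2.26 (SE 0.43, adjusted p = 0.0470), of the same sign as that of Gdf11. Of the 24 growth factor genes tested, Fst alone was called in the interaction, against 0.259% of all genes (Gdf11 was not on that list). With tamoxifen 13 rose in WT and 7 in the mutant, against 15.8% and 5.22% of all genes.

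The genes called included those of the transcription factors Runx1, Klf5, Fosl1 and Hivep3. Runx1, a factor of blood and cartilage development that denervated muscle also turns on, was at 2.02, 1.61, 0.949 and 3.66 CPM in WT placebo and 19.9, 27.0, 15.2 and 23.7 CPM in WT tamoxifen mice. Mutants had 26.5, 22.8, 16 and 25.8 CPM on placebo and 35, 30.1, 47.0 and 24.1 CPM on tamoxifen. Its rise of 3.27 in WT (SE 0.32, adjusted p = 9.19e-05) was not matched in the mutant, where the change was 0.58 (SE 0.29, adjusted p = 0.224), and the interaction was -2.70 (SE 0.42, adjusted p = 0.0248). Klf5, a zinc finger factor of proliferating cells, fell in the mutant and did not pass in WT. It was at 30.7, 19.4, 18 and 20.6 CPM in Dnm2 placebo and 8.86, 5.74, 8.02 and 9.01 CPM in Dnm2 tamoxifen mice, with 1.70 to 4.2 CPM in all 8 WT mice, so treated mutants lay between the placebo mutants and WT. The fall was 1.48 in size on the log2 scale (SE 0.25, adjusted p = 0.00339), and the interaction was -1.82 (SE 0.35, adjusted p = 0.0470). Fosl1, a subunit of the AP-1 factor, was nearly absent from WT placebo mice, at 0.0406, 0, 0.0791 and 0 CPM, and reached 2.57, 1.97, 2.67 and 3.13 CPM in Dnm2 placebo mice. On tamoxifen its level was 0.121, 0.420, 0.0942 and 0.173 CPM in WT and 1.53, 0.757, 0.883 and 1.39 CPM in the mutant. Its interaction was -2.80 (SE 0.55, adjusted p = 0.0470), a value that rests on very few reads in WT and was -3.87 with a prior count of 0.25 in place of 2. Sox11, a factor of the denervation list, had a value that did not pass (interaction -2.52, SE 0.53, adjusted p = 0.0655), with 5.61 to 15.1 CPM in Dnm2 placebo and 3.93 to 6.75 CPM in Dnm2 tamoxifen mice. Hivep3, a zinc finger protein known from bone formation, was called at -2.0 (SE 0.37, adjusted p = 0.0470).

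The AP-1 motif TGANTCA was searched because Fosl1 was among the genes called, in the 250 bases before each RefSeq start (mouse build GRCm38.p6), together with the core of the RUNX site (TGTGGT), the estrogen response element (GGTCA and TGACC with 3 bases between) and the core of the metal response element (TGCACNC and TGCGCNC), on both strands. RefSeq windows were found for 30 of the 40 genes, with 44 windows in all, since a gene can have several starts. TGANTCA was in the windows of 5 of the 30 genes (16.7%), against 7.82% of the 27025 genes in the RefSeq table. The metal response core was found for 11 of the 30 (36.7%, against 23.8%), the RUNX core for 3 (against 15.9%) and the estrogen response element for 0 (against 0.0666%). Mt3 was not among the 11, since its window held no metal response core. A gene with more starts has more windows in which to match, and the RefSeq table held 32851 windows for its 27025 genes. That table was also not limited to the genes tested, so the 2 sets differ, and no difference in shares was tested. Metal and AP-1 matches do not overlap in any window shown here, and a match is only a run of letters. The 5 genes with the AP-1 letters all had an interaction below 0, as had 35 of all 40 genes called. The stretches are shown to let the shared letters be seen, 5′ to 3′ on the strand of the gene, with the match in capitals.
C77080, chr4:129261432-129261460, minus strand: ctaagactggcTGAGTCAatccaggaagc
Cgref1, chr5:30945643-30945671, minus strand: ctgcctccatcTGAGTCAcagtgacacac
Dhrs9, chr2:69380433-69380461, plus strand: tgcaataggtgTGACTCActgagagaagt
Fam180a, chr6:35326172-35326200, minus strand: cacatgccccgTGAGTCActccagatgtg
Sgms2, chr3:131490389-131490417, minus strand: cgggcccggggTGAGTCAcggctgggagc
Sgms2, chr3:131490782-131490810, minus strand: gcaccacccctTGAGTCAgcgggtgcccc
Of these genes, Cgref1, which encodes a secreted calcium-binding protein, was at 0.651 to 0.804 CPM in WT placebo, 2.45 to 5.87 in WT tamoxifen, 2.85 to 5.23 in Dnm2 placebo and 1.33 to 5.18 in Dnm2 tamoxifen mice, and its interaction was -2.96 (SE 0.49, adjusted p = 0.0248). Dhrs9, a retinol dehydrogenase, and Fam180a had interactions of -4.74 and -3.97, with at most 4.40 CPM in any mouse. Sgms2, a sphingomyelin synthase, and C77080 had interactions of -2.11 and -1.76.

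Genes of the matrix and of its turnover were also called. Timp1, an inhibitor of matrix metalloproteinases, was at 0.659, 0.481, 0.395 and 1.41 CPM in WT placebo, 41.2, 55.2, 22.4 and 32.5 CPM in WT tamoxifen, 19.5, 36.8, 7.20 and 23.1 CPM in Dnm2 placebo and 21.2, 38.3, 46.4 and 5.96 CPM in Dnm2 tamoxifen mice. WT placebo mice alone were low, and the other 3 groups overlapped. The interaction of Timp1 was -5.13 (SE 0.83, adjusted p = 0.0248), with a rise of 5.49 in WT (SE 0.67, adjusted p = 0.000233) and a change of 0.37 in the mutant (SE 0.53, adjusted p = 0.712). Thbs4, a thrombospondin of tendon and of injured muscle, was at 45.4, 45.5, 43.6 and 102 CPM in WT placebo, 471, 756, 313 and 473 CPM in WT tamoxifen, 336, 277, 120 and 199 CPM in Dnm2 placebo and 239, 329, 245 and 85.1 CPM in Dnm2 tamoxifen mice. It rose by 3.09 in WT (SE 0.44, adjusted p = 0.000369), its change in the mutant was -0.06 (SE 0.41, adjusted p = 0.954), and the interaction was -3.14 (SE 0.59, adjusted p = 0.0470). The fibulin Fbln7 and the basement membrane protein Fras1 followed, at -1.84 and -2.11, and Spock3, a proteoglycan, at -3.81. Msln, a surface protein of mesothelial cells, differed in that all 4 treated mutants stayed above all 8 WT mice. It was at 11, 17.2, 5.43 and 13.2 CPM in Dnm2 placebo, 4.14, 3.59, 2.69 and 1.94 CPM in Dnm2 tamoxifen and 0.253 to 1.17 CPM in WT mice, with an interaction of -3.11 (SE 0.54, adjusted p = 0.0390).

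Annexins and other calcium-binding proteins were also called. Anxa8 had the lowest value of all genes called, -5.31 (SE 0.93, adjusted p = 0.0390). It was at 0.182, 0.481, 0.553 and 0.469 CPM in WT placebo, 11.6, 15, 3.06 and 5.45 CPM in WT tamoxifen, 25.1, 30.9, 8.33 and 13 CPM in Dnm2 placebo and 15.4, 7.57, 15.3 and 1.85 CPM in Dnm2 tamoxifen mice, where again the WT placebo mice alone were apart. Anxa4 was at 10.8 to 14.0, 23.3 to 28.7, 30.7 to 69.5 and 31.1 to 42.5 CPM in the same order, with an interaction of -1.66 (SE 0.27, adjusted p = 0.0248). S100a4, a small calcium-binding protein of fibroblasts and motile cells, was at 1.09 to 1.41, 4.69 to 9.15, 6.29 to 34.9 and 7.10 to 12.9 CPM, with an interaction of -3.33 (SE 0.56, adjusted p = 0.0306).

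Genes of the cytoskeleton and of neurons were among the genes called as well. Map1a and Map1b encode microtubule-associated proteins best known from neurons. Map1a was at 12.1, 7.39, 6.25 and 12.9 CPM in WT placebo, 27.3, 26.6, 21 and 24.1 CPM in WT tamoxifen, 84.1, 74.9, 41.7 and 85.2 CPM in Dnm2 placebo and 36.4, 38.5, 35.5 and 17.4 CPM in Dnm2 tamoxifen mice. Treated and placebo mice did not overlap in either genotype, and the change was a rise of 1.33 in WT (SE 0.28, adjusted p = 0.00340) while in the mutant it fell by 1.16 (SE 0.28, adjusted p = 0.0207), with an interaction of -2.49 (SE 0.40, adjusted p = 0.0248). For Map1b the interaction was -1.15 (SE 0.23, adjusted p = 0.0470), and mutants had 15.5 to 25.7 CPM on placebo and 13.1 to 22.4 CPM on tamoxifen. Uchl1, a deubiquitinating enzyme of neurons, had -2.85, the guanine exchange factor Tiam2 had -2.64 and the potassium channel subunit Kcng1, with at most 2.04 CPM in any mouse, had -4.52.

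Further genes with an interaction below 0 act in lipids, innate immunity and the vacuolar proton pump. Cers6, a ceramide synthase, had -2.48 and, with Sgms2, belongs to sphingolipid synthesis. Tlr2, a receptor for bacterial lipoproteins, was at 0.949 to 1.39 CPM in WT placebo, 2.26 to 3.45 in WT tamoxifen, 4.62 to 7.64 in Dnm2 placebo and 1.94 to 4.78 in Dnm2 tamoxifen mice, with an interaction of -1.97 (SE 0.36, adjusted p = 0.0413). Atp6ap2, which encodes an accessory protein of the proton pump, was at 14.6 to 21.2, 25.4 to 38.3, 28.3 to 43.3 and 28.5 to 38.9 CPM in the same order, with an interaction of -1.15 (SE 0.22, adjusted p = 0.0470). Mpzl3 (-1.98) and Armh4 (-1.61, SE 0.24, adjusted p = 0.0232) had treated and placebo mice apart in both genotypes. Armh4 was at 3.40 to 5.22 CPM in WT placebo, 6.64 to 9.0 in WT tamoxifen, 13.2 to 23.3 in Dnm2 placebo and 9.57 to 12.5 in Dnm2 tamoxifen mice. The remaining genes with values below 0 were Fam171b (-3.22), Tmeff1 (-2.69) and Ypel1 (-2.40).

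AC109619.1 was the only one of the 35 that rose in both genotypes. It was at 0.365, 0.255, 0.316 and 0.335 CPM in WT placebo and 20.9, 19.3, 19.9 and 19.8 CPM in WT tamoxifen mice, and at 0.834, 0.768, 0.588 and 0.396 CPM in Dnm2 placebo and 16.7, 10.9, 14.2 and 15.9 CPM in Dnm2 tamoxifen mice. The 4 treated WT mice lay within a narrow range, and all 4 treated mutants lay below them. The rises were 5.71 (SE 0.21, adjusted p = 1.03e-10) and 4.34 (SE 0.19, adjusted p = 2.83e-09), a difference of -1.37 (SE 0.26, adjusted p = 0.0470). GENCODE annotates this gene as an antisense RNA, and it lies beside Flrt1, whose interaction was -0.58 (SE 0.57, adjusted p = 0.722) with rises of 5.40 and 4.82. Whether strand was used in counting is not given in the sources used here, so reads of AC109619.1 and of genes on the other strand cannot be told apart, and the same holds for Gm19461, which is also annotated as antisense.

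The 5 genes with an interaction above 0 were led by Micall2, which encodes a protein of the MICAL family that links Rab GTPases to the actin cytoskeleton and cell junctions. It was at 3.18, 1.75, 1.5 and 2.66 CPM in WT placebo, 1.33, 1.65, 1.84 and 1.66 CPM in WT tamoxifen, 2.05, 1.58, 2.99 and 1.42 CPM in Dnm2 placebo and 16.6, 9.17, 8.95 and 9.35 CPM in Dnm2 tamoxifen mice. All 4 treated mutants lay above every other mouse. The rise in the mutant was 2.42 (SE 0.28, adjusted p = 0.000546), the change in WT -0.53 (SE 0.28, adjusted p = 0.169) and the interaction 2.95 (SE 0.40, adjusted p = 0.0115). It was called without 15 of the 16 mice, with values from 2.68 to 3.19 and an adjusted p of 0.0561 without WT tamoxifen mouse 1, and its interaction was 3.59 in the 10 mice with Xist. Fgfr4, a fibroblast growth factor receptor of muscle progenitors, had a value of similar size that did not pass (2.80, SE 0.59, adjusted p = 0.0655). It was at 2.46 to 5.88 CPM in all 8 WT mice, 0.0792 to 0.586 in Dnm2 placebo and 1.40 to 4.72 in Dnm2 tamoxifen mice.

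Lpl, which encodes the lipoprotein lipase that releases fatty acids for uptake, and Etfdh, the oxidoreductase that passes electrons of fatty acid oxidation to ubiquinone, were lower in the other 3 groups than in WT placebo mice. Lpl was at 826, 766, 836 and 757 CPM in WT placebo, 416, 371, 441 and 303 CPM in WT tamoxifen, 452, 310, 426 and 319 CPM in Dnm2 placebo and 341, 466, 367 and 393 CPM in Dnm2 tamoxifen mice. In WT it fell by 1.06 (SE 0.15, adjusted p = 0.000291), its change in the mutant was 0.06 (SE 0.15, adjusted p = 0.851), and its interaction was 1.11 (SE 0.21, adjusted p = 0.0470). Etfdh was at 237, 262, 288 and 263 CPM, 174, 164, 175 and 165 CPM, 152, 150, 174 and 154 CPM, and 154, 168, 150 and 189 CPM in the same order of groups, with an interaction of 0.70 (SE 0.13, adjusted p = 0.0470). Ccdc9b had 1.01 (SE 0.20, adjusted p = 0.0470) and Gm19461, at less than 1 CPM in every mouse, had 2.43 (SE 0.47, adjusted p = 0.0470).

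Among fatty acid oxidation genes, only Etfdh was called in the interaction. Of 34 genes tested, 21 fell and 3 rose with tamoxifen in WT, and 0 passed in either direction in the mutant (edgeR). Over all genes, 11.9% fell and 15.8% rose in WT and 3.05% fell and 5.22% rose in the mutant, so a count of 0 to 2 in the mutant for lists of this size is near that share, and the differences between the WT and mutant counts of the lists were not tested. Their interactions were above 0 for 29 of 34, with 22 at an unadjusted p under 0.05 against 13.5% of all genes, and a median of 0.44 against -0.01 over all genes. Acadvl, an acyl-CoA dehydrogenase of long chains, was at 555, 592, 633 and 559 CPM in WT placebo, 377, 371, 370 and 330 CPM in WT tamoxifen, 349, 369, 421 and 346 CPM in Dnm2 placebo and 338, 382, 326 and 372 CPM in Dnm2 tamoxifen mice. WT placebo mice alone were high, and the interaction was 0.63 (SE 0.13, adjusted p = 0.0655). Bdh1, a ketone body dehydrogenase, had an interaction of 2.36 (SE 0.52, adjusted p = 0.0787), with 22.8 to 62.1 CPM in WT placebo, 8.29 to 11.9 in WT tamoxifen and 1.70 to 7.93 in all 8 mutants. The list's median lay between 0.38 and 0.49 without each mouse in turn, a narrower range relative to its size than those of most lists below.

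Genes of the respiratory chain were counted likewise. Of 67 nuclear-encoded genes, 51 fell in WT, against 11.9% of all genes, and 2 in the mutant, near the 3.05% of all genes, and of 8 genes of the mitochondrial genome, 6 fell in WT and 0 in the mutant. The median interactions were 0.27 and 0.59, with 62 of 67 and 7 of 8 above 0, and 0 genes were called in either list (edgeR), 15 of the 67 and 7 of the 8 having an unadjusted p under 0.05, against 13.5% of all genes. Without WT tamoxifen mouse 1 the first median was 0.18. mt-Co1, a subunit of cytochrome oxidase, had an interaction of 0.71 (SE 0.20, adjusted p = 0.168), and its group means were 53758 CPM in WT placebo, 33854 in WT tamoxifen, 28290 in Dnm2 placebo and 29155 in Dnm2 tamoxifen mice. Sdhb, of complex II, had 0.47 (SE 0.17, adjusted p = 0.263). Glycolysis and glycogen genes had a median of 0.18, with 21 of 26 above 0, and 8 fell in WT and 0 in the mutant. That median was 0.12 without WT placebo mouse 3, 0.11 without WT tamoxifen mouse 2 and 0.06 without Dnm2 tamoxifen mouse 4. Slc2a4, the insulin-regulated glucose transporter, had 0.46 (SE 0.14, adjusted p = 0.195). Reads of the mitochondrial genome took 13.6% to 25.7% of a library, and leaving its genes out of the library sizes left 40 genes called.

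**Figure D3:**
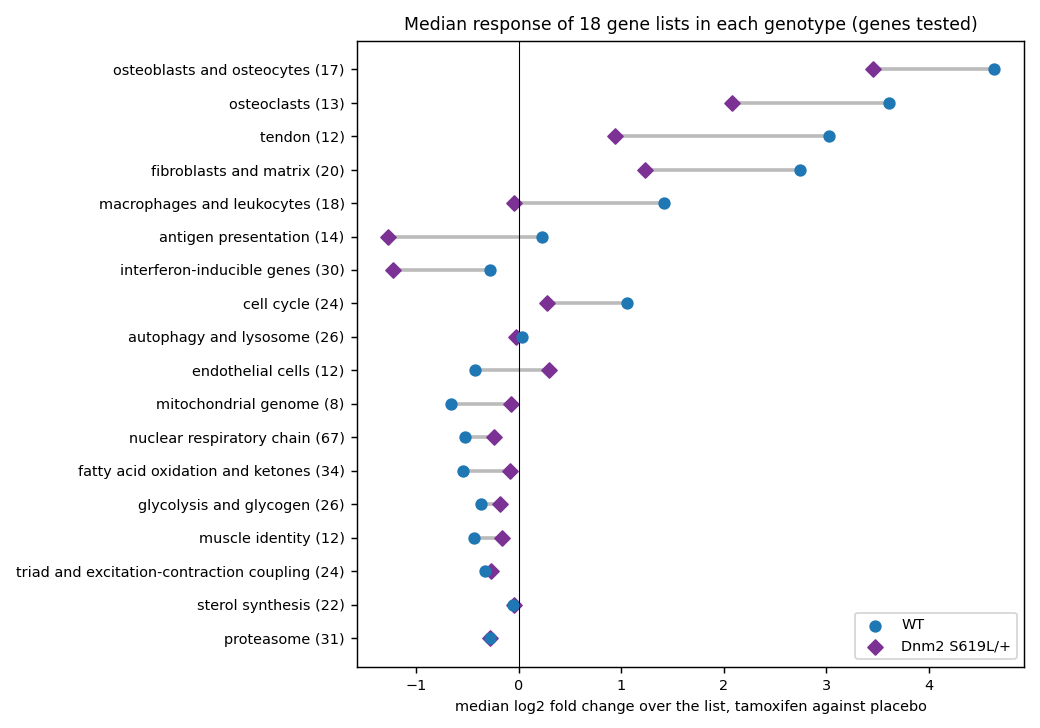
Median change with tamoxifen (log2) over the genes tested of 18 lists, with a circle for WT, a diamond for Dnm2 S619L/+ and the number of genes in brackets. The circle lies to the right for bone, tendon, matrix, macrophage, antigen presentation, interferon and cell cycle lists and to the left for endothelial and mitochondrial lists, and both marks lie together for sterol synthesis and the proteasome.

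Tendon genes had the lowest median among the lists with over 10 genes tested. All 12 had an interaction below 0, 8 with an unadjusted p under 0.05 against 13.5% of all genes, and the median was -2.18, or -3.35 without WT placebo mouse 4. With tamoxifen 10 rose in WT and 1 in the mutant, against 15.8% and 5.22% of all genes, and Thbs4 alone was called in the interaction. Tnmd, which encodes tenomodulin, the defining membrane protein of tendon cells, was at 1.44, 0.255, 0.870 and 8.93 CPM in WT placebo and 20.2 to 41.5 CPM in WT tamoxifen mice, with 10.1 to 19.4 CPM in Dnm2 placebo and 3.12 to 20.4 CPM in Dnm2 tamoxifen mice, and its interaction was -3.23 (SE 1.0, adjusted p = 0.197). Cilp, a matrix protein of cartilage and tendon, was at 8.91 to 34 CPM in WT placebo, 61.6 to 86.7 in WT tamoxifen, 387 to 1351 in Dnm2 placebo and 453 to 822 in Dnm2 tamoxifen mice (interaction -2.16, SE 0.56, adjusted p = 0.129). Summed CPM of the 12 genes was 58.9 to 351 in WT placebo, 1837 to 4085 in WT tamoxifen, 757 to 1756 in Dnm2 placebo and 1006 to 3020 in Dnm2 tamoxifen mice. It moved with the genes called, and its part in them was not tested.

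Fibroblast and matrix genes had interactions below 0 for 20 of 20, 16 of them at an unadjusted p under 0.05, with a median of -1.24. In WT 17 rose and in the mutant 12. Over all genes, 15.8% rose in WT and 5.22% in the mutant, and 13.5% had an unadjusted interaction p under 0.05. Postn, which encodes periostin, went from 10.7 to 31.4 CPM to 1096 to 2489 CPM in WT and from 21.2 to 66.3 CPM to 75.3 to 1378 CPM in the mutant, the lowest of these being mouse 4, with an interaction of -2.60 (SE 0.88, adjusted p = 0.238). Osteoblast and osteocyte genes rose for 14 of 17 in each genotype. Their median interaction was -0.69, or -1.12 without WT placebo mouse 4 and -0.33 without Dnm2 tamoxifen mouse 4, 1 of the 17 having an unadjusted p under 0.05 and 0 being called, and Tnn, a tenascin of bone, went from 0.0283 to 0.447 CPM to 332 to 705 CPM in WT and from 0.0453 to 0.158 CPM to 9.48 to 424 CPM in the mutant, mouse 4 being lowest (interaction -0.75, SE 2.27, adjusted p = 0.930). Osteoclast genes had a median of -1.29, with 9 of 13 rising in WT and 7 in the mutant, and Ctsk, their collagen-cleaving protease, had -2.54 (SE 0.87, adjusted p = 0.247). With the mean log2 CPM of the tested osteoblast and osteocyte genes as a covariate, 46 genes were called, 26 of the 40 among them. All 40 kept their sign and a p under 0.05, which their choice in the same mice favours.

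Macrophage and leukocyte genes rose with tamoxifen for 14 of 18 in WT, against 15.8% of all genes, and for 1 in the mutant, Gpnmb, near the 5.22% of all genes. All 18 interactions were below 0, 14 with an unadjusted p under 0.05 against 13.5% of all genes, the median was -1.45, and 0 were called (edgeR). Dnm2 placebo mouse 4 had a summed CPM of 563 over these genes, against 145 to 285 in the other 3 of its group, and without it the median was -0.92. Cd68, a lysosomal protein of macrophages, was at 2.85 to 5.52 CPM in WT placebo, 11.4 to 40.6 in WT tamoxifen, 4.03 to 12.9 in Dnm2 placebo and 7.93 to 23.5 in Dnm2 tamoxifen mice, with an interaction of -1.80 (SE 0.58, adjusted p = 0.211). Antigen presentation genes had a median of -1.56 and interferon-inducible genes of -0.99, but without Dnm2 placebo mouse 4 these medians were -0.38 and 0.16. That mouse had a summed CPM of 2522 over the interferon list, against 149 to 204 in the other 3 Dnm2 placebo mice. Gm4841, an interferon-inducible GTPase, was at 790 CPM in it and at 4.35 to 24.3 CPM in the other 3, and its interaction of -6.26 (SE 1.89, adjusted p = 0.191) did not pass. The same mouse had the most reads for T and NK cell genes, with 57.9 CPM in sum against 1.86 to 4.01.

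Endothelial genes were the cell type list with the highest median, 0.82, with 11 of 12 interactions above 0. Of the 12, 6 had an unadjusted p under 0.05, against 13.5% of all genes. Without WT placebo mouse 4 the median was 0.52. Only 1 of the 12 passed the test within WT, where it fell, and 0 within the mutant, against 27.7% and 8.27% of all genes. Vwf, the von Willebrand factor, was at 35.8 to 50.7 CPM in WT placebo, 29.8 to 38.3 in WT tamoxifen, 23.3 to 28.8 in Dnm2 placebo and 29.8 to 45.4 in Dnm2 tamoxifen mice (interaction 0.82, SE 0.20, adjusted p = 0.110). Flt1, a VEGF receptor, had 0.87 (SE 0.29, adjusted p = 0.236). Pax7, which marks satellite cells, the stem cells of muscle, had 1.65 (SE 0.52, adjusted p = 0.202), with 3.95 to 6.96 CPM in WT placebo and 0.407 to 1.47 in Dnm2 placebo mice, and 1.12 to 2.47 in Dnm2 tamoxifen mice. The list of satellite cell and myogenesis genes had no steady direction. Its median was 0.17, and from -0.17 to 0.41 without single mice. Of its 18 genes, 7 were below 0, 5 had an unadjusted p under 0.05 and 0 were called.

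Genes of the fiber itself were mostly not separated by the interaction. Muscle identity genes had a median of 0.33 (0.22 without Dnm2 placebo mouse 4 and 0.15 without Dnm2 tamoxifen mouse 4) with 10 of 12 above 0, 4 fell in WT and 1 in the mutant, and Actn2, an alpha-actinin of the Z disc, had 0.75 (SE 0.27, adjusted p = 0.272). Triad and excitation-contraction genes had a median of -0.02, with 6 of 24 falling in WT and 4 in the mutant. Over all genes, 11.9% fell in WT and 3.05% in the mutant. Slow fiber genes had a median of -0.45, or -0.04 without Dnm2 placebo mouse 2, with 8 of 12 below 0. Fast fiber genes had a median of 0.08, from -0.05 to 0.26 without single mice, with 3 of 13 below 0. In each of these 2 lists 2 genes had an unadjusted p under 0.05, near the 13.5% of all genes, and 0 were called. Myl3, a slow myosin light chain, had 2.08 (SE 0.54, adjusted p = 0.129), and Myh2, the myosin heavy chain of type IIa fibers, had 1.54 (SE 0.44, adjusted p = 0.164). Both were lower in all 4 Dnm2 placebo mice than in the 4 WT placebo mice, Myl3 with 5.21 to 24.2 against 47.8 to 108 CPM. Sarcolipin, which regulates the calcium pump of the reticulum (Sln), had -0.56 (SE 0.83, adjusted p = 0.831). The denervation list held Runx1 as its only gene called, with a median of 0.25 (0.14 without WT tamoxifen mouse 2, 0.10 without Dnm2 placebo mouse 3 and 0.13 without Dnm2 tamoxifen mouse 4) and 17 of 24 above 0, while Ncam1, the adhesion molecule on denervated fibers, had -2.34 (SE 0.58, adjusted p = 0.117). Sterol synthesis (-0.02) and proteasome genes (0.01) had medians near that of all genes, with either sign as single mice were left out, as had the triad list.

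The count of genes called changed with single mice. Leaving out 1 mouse left 2, 5, 5 and 40 genes called without WT placebo mice 1 to 4, 1, 2, 25 and 16 without WT tamoxifen mice 1 to 4, 3, 4, 293 and 4 without Dnm2 placebo mice 1 to 4, and 3, 3, 7 and 35 without Dnm2 tamoxifen mice 1 to 4. All 40 kept their sign and an unadjusted p under 0.05 in each of these 16 fits. The 40 were chosen by a small p over the same mice, so kept signs, here and in the fits below, are no further evidence. Mt3 was called in 16 of the fits, Micall2 in 15, Gdf11 in 13, Armh4 in 9, Runx1 in 7 and 13 genes in at least 5. Dnm2 placebo mouse 3 was the one whose absence raised the count, and all 40 were then called. With Xist as a covariate 124 genes were called, the 40 among them, and in the 10 mice with Xist 45 were called, 18 of the 40 among them, with all 40 at the same sign and a p of at most 0.00953. In those 10 mice the interaction was -6.18 for Anxa8 (adjusted p = 0.0986), -5.14 for Timp1 (0.104), -2.60 for Gdf11 (0.0690) and -2.65 for Runx1 (0.0588), and these 4 did not pass. DESeq2 called 327 genes, 115 above 0 and 212 below. With sample weights, limma voom called 155, 37 above and 118 below, against 5 above and 35 below here. Some genes given above as not passing in edgeR passed with DESeq2. Adjusted p with DESeq2 and with voom was 0.000800 and 0.0935 for Sox11, 0.000363 and 0.0933 for Fgfr4 and 0.00116 and 0.0521 for Bdh1. It was 0.000328 and 0.0222 for Acadvl and 0.00813 and 0.0296 for Mt2.

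**Figure D4:**
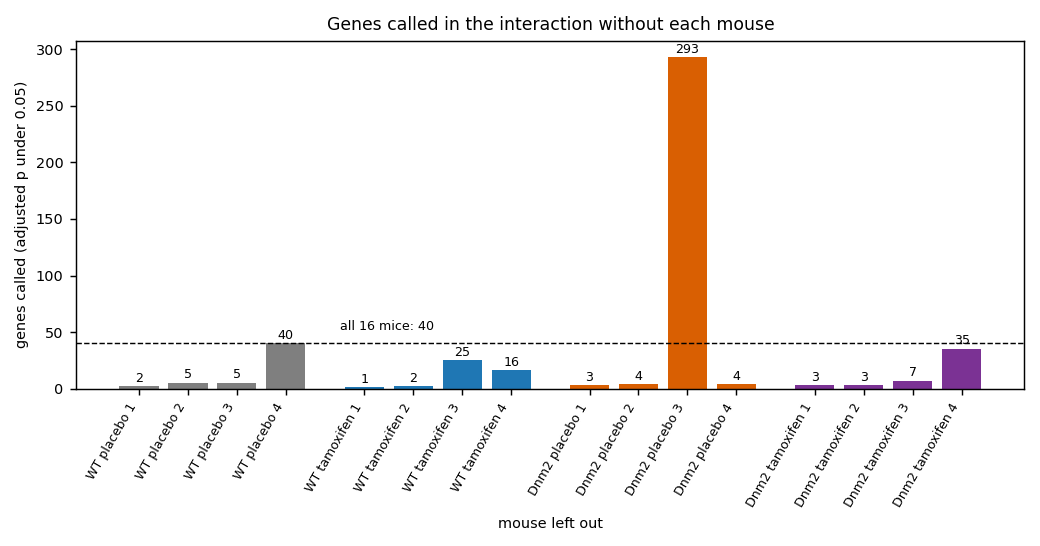
Number of genes called in the interaction (adjusted p under 0.05) after leaving out each of the 16 mice, 1 bar a mouse, with the count over all mice as a dashed line at 40. The bars run from 1 without WT tamoxifen mouse 1 to 293 without Dnm2 placebo mouse 3.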

How the data were processed

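RNA-seq of TA muscle from the 16 mice of the Dnm2 cohort was used, grouped by the sample titles. The authors deposited raw counts, that is whole numbers of reads for each Ensembl gene. Libraries were stranded, with 300 ng of input RNA and a fragmentation time of 2 min, per the labels. The submitters' processing notes name bcl2fastq 2.20.0.422, cutadapt 1.10, Bowtie 1.2.2, STAR 2.5.3, HTSeq 0.6.1p1 and the build mm39, and strand settings are not given in the sources used here. GENCODE M21 named 52083 of 55416 identifiers. Every column belonged to 1 mouse, and 0 columns belonged to no sample. The table of the other cohort was not used.

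All 16 mice were fitted together with edgeR 4.0.16 in R 4.3.3. TMM scaling, the package's default low-count filter, the robust quasi-likelihood test and a prior count of 2 were used, and p-values were adjusted by Benjamini-Hochberg over the 15439 genes tested. SEs were taken as the log2 value over the square root of F. The test was first run on counts simulated with the fitted spread of each gene and no outlying mice. The outcome of that run is not given here. No pair of mice agreed within counting error (lowest chi-square 14.4 a gene), so none was counted as 1 library. The labels do not say that the mice came from separate litters or cages, and p-values measure the spread between these mice.

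The comparison and the 36 gene lists were chosen with earlier results of these data known. Genes named are, among the genes called with a mean log2 CPM above 0, the 12 with the most positive and the 12 with the most negative interaction and the 10 with the smallest p. To these come 3 of each list by p and genes fixed by name (Dnm2, Tnn, Flrt1 and others). All other genes called are named as well, with those nearest the threshold and those with the AP-1 letters, chosen after their values were seen. The alternatives were DESeq2 1.42.0, limma 3.58.1 voom with sample weights, RLE normalization, no filter, the study's own filter (over 10 reads, 90% of mice), the replicate number as a block, thinned libraries, other covariates, and leaving out each mouse.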

Additional observations from a re-analysis of the deposited data

Results flagged for a closer look

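The 40 genes of the interaction are those whose response to tamoxifen differed between genotypes in a direct test of that difference. Its size on the log2 scale was -5.31 for Anxa8, -5.13 for Timp1, -5.11 for Mt3, -4.74 for Dhrs9, -4.52 for Kcng1, -3.97 for Fam180a, -3.81 for Spock3, -3.33 for S100a4, -3.22 for Fam171b, -3.14 for Thbs4 and -3.11 for Msln. It lay between -3 and -2 for Cgref1 (-2.96), Gdf11 (-2.91), Uchl1 (-2.85), Fosl1 (-2.80), Runx1 (-2.70), Tmeff1 (-2.69), Tiam2 (-2.64), Map1a (-2.49), Cers6 (-2.48), Ypel1 (-2.40), Fst (-2.26), Sgms2 (-2.11) and Fras1 (-2.11). Smaller differences were found for Hivep3 (-2.0), Mpzl3 (-1.98), Tlr2 (-1.97), Fbln7 (-1.84), Klf5 (-1.82), C77080 (-1.76), Anxa4 (-1.66), Armh4 (-1.61), AC109619.1 (-1.37), Atp6ap2 (-1.15) and Map1b (-1.15). Above 0 were Etfdh (0.70), Ccdc9b (1.01), Lpl (1.11), Gm19461 (2.43) and Micall2 (2.95).

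Of 212 sets of 4 mice looked at, 15 had 1 mouse far from the other 3, and chance alone flags about 1 in 20. Dnm2 placebo mouse 4 had a summed CPM of 2522 for interferon-inducible genes, 3251 for antigen presentation (others 507 to 727), 57.9 for T and NK cells and 74.6 for B and plasma cells (others 14.8 to 20). Dnm2 tamoxifen mouse 4 was low for Gdf11 (5.40 CPM) and Map1a (17.4 CPM) and high for the summed CPM of fatty acid oxidation genes, 7902 against 4117 to 4751. Dnm2 tamoxifen mouse 1 was high for Mt3 (8.89 CPM) and Micall2 (16.6 CPM), whose other 3 mice were at 8.95 to 9.35 CPM. WT placebo mouse 4 was high for Thbs4 (102 CPM) and Atp6ap2 (21.2 CPM), WT placebo mouse 2 for Tlr2 (1.39 CPM) and Dnm2 placebo mouse 3 for Etfdh (174 CPM). Dnm2 placebo mouse 1 had 41940004 reads, against 21520228 to 22797419 in its group, and Dnm2 tamoxifen mouse 2 had 16.5% mitochondrial reads, against 14.7% to 15%.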

How the results depend on the processing

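The number of genes called in the interaction ran from 1 to 293 over the 16 fits that left out 1 mouse. The other settings gave 327 with DESeq2, 155 with limma voom with sample weights, 20 with RLE normalization, 16 with the study's filter on low counts, 14 with libraries thinned to the shallowest and 124 with Xist as a covariate, and 338 without Dnm2 placebo mouse 3 and Dnm2 tamoxifen mouse 4, an alternative chosen after seeing the data, as was the fit of the 10 mice with Xist. Of the 40 genes, DESeq2 kept 40, voom 39, RLE 20 and the thinned libraries 12 of 38 tested, and the study's filter tested 30 and kept 16. Each setting kept the sign of every one of the 40 that it tested, with an unadjusted p under 0.05. All settings used the mice that the 40 were chosen from, or part of them, so this is no further evidence. The split moved from 12.5% above 0 to 35.2% with DESeq2. No filter (34), no mitochondrial genes (40), the osteoblast covariate (46) and the 10 mice with Xist (45) kept the count within 1.5 times. With the replicate number as a block 10 genes were called, 8 of the 40 among them. Same-numbered mice of different groups correlated in their deviations from the group mean by -0.325 to 0.335 (median 0.0263), and 5 of 16 mice correlated best with their own number, so the numbers were not taken to pair mice.

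Counts within a genotype moved as well. In WT, 6 genes were called with the osteoblast covariate and 2231 in the mice with Xist, and leaving out a mouse gave 2769 (WT tamoxifen mouse 2) to 4825. In the mutant, 2931 were called with voom, 814 without a filter, 843 with the block, 497 with Xist as covariate, 15 with the osteoblast covariate, 79 in the mice with Xist, 2633 without Dnm2 placebo mouse 3 and Dnm2 tamoxifen mouse 4, and 30 with only those 8 mice fitted. Leaving out a mouse gave 368 (Dnm2 tamoxifen mouse 3) to 2562 (Dnm2 tamoxifen mouse 4). The osteoblast genes themselves rose with tamoxifen in both genotypes. With them as the covariate, the change with tamoxifen and their level cannot be told apart. The smaller fits held fewer mice, and the cause of the other changes in count was not tested. The interaction of Dnm2 had the other sign with DESeq2 (0.0112) and RLE (0.0112), and ran from -0.0413 to 0.0392 without single mice. That of Flrt1 ran from -0.82 to 0.14, above 0 without Dnm2 placebo mouse 1.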

Other observations

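No gene of the following lists was called in the interaction (edgeR). Over all genes, 15.8% rose with tamoxifen in WT and 5.22% in the mutant, so 0 genes in the mutant is near that share for lists of this size, and the differences between the genotypes' counts were not tested. Interactions were below 0 for 7984 of all 15439 genes, and 13.5% of all genes had an unadjusted p under 0.05. The stress response count below 0 and the estrogen list's count at p under 0.05, given below, were near these shares. Cell cycle genes had an interaction below 0 for 21 of 24, and 5 of the 24 had an unadjusted p under 0.05, with a median of -0.62, or -0.30 without Dnm2 placebo mouse 4, and 12 rose in WT and 0 in the mutant. Of 25 genes of the unfolded protein and integrated stress response, 14 were below 0, 8 had an unadjusted p under 0.05, 7 rose in WT and 0 in the mutant, and Xbp1, a transcription factor of that response, had an interaction of -0.61 (SE 0.16, adjusted p = 0.134). Lysosome and autophagy genes were below 0 for 18 of 26, 7 had an unadjusted p under 0.05, and 10 rose in WT and 0 in the mutant, with a median of -0.18, or -0.12 without WT tamoxifen mouse 4 and -0.08 without Dnm2 placebo mouse 2. Cdkn1a, an inhibitor of the cell cycle that is also a target of FoxO factors in atrophy, was at a mean of 19.7 CPM in WT placebo, 57 in WT tamoxifen, 168 in Dnm2 placebo and 197 in Dnm2 tamoxifen mice, with an interaction of -1.30 (SE 0.43, adjusted p = 0.230). Estrogen receptors and their targets were below 0 for 6 of 15, 2 had an unadjusted p under 0.05, and the median was 0.07 and at most 0.17 without single mice. In WT 6 of them rose and 3 fell, and in the mutant 4 rose and 0 fell. Over all genes, 11.9% fell in WT and 3.05% in the mutant. Esrrb, an orphan receptor related to the estrogen receptor, had an interaction of 0.97 (SE 0.29, adjusted p = 0.188).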
